A study of Homo sapiens with 3 samples.

Results

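The ribosomal S6 kinases and their relatives RSK, MSK and SGK were followed in BEAS-2B cells exposed to MTX. The family was taken as the 10 genes RPS6KA1, RPS6KA2, RPS6KA3, RPS6KA4, RPS6KA5, RPS6KB1, RPS6KB2, SGK1, SGK2 and SGK3, and every array probe annotated to 1 of them with a value on at least 1 array was used. This gave 14 probes of 8 genes, out of 31615 probes and 14904 genes with a value in the series. Of these, 10 probes of 7 genes had a value on all 3 arrays, out of 17569 probes and 9394 genes. RPS6KA4 and RPS6KB2 were not analysed here. The family was selected on the log ratios of MTX over DMSO in these same arrays, in which SGK1 and RPS6KA2 were already known to stand near the ends, so its values are given as a description and without a test.

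BEAS-2B is a line of human bronchial epithelium immortalised with an adenovirus and SV40 hybrid virus. Cells were incubated for 24 h and then exposed for 48 h to MTX at 0.144 µM, the concentration described as giving 20% inhibition, and the comparison cells received the vehicle DMSO. On each of 3 two-colour arrays the RNA of MTX cells carried Cy5 and that of DMSO cells carried Cy3, so that each array is 1 ratio of MTX to DMSO. The dyes were never exchanged, and a gene-specific dye effect cannot be told apart from an effect of MTX.

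The RSK, MSK, S6 and SGK kinases belong to the AGC branch of protein kinases. Of these, the RSK, S6 and SGK kinases depend on phosphorylation by PDK1 for full activity. RSK kinases carry a pair of kinase domains and are switched on by ERK at the end of the RAS and RAF cascade, MSK kinases by ERK or p38, S6 kinases by the mTORC1 complex, and SGK kinases by mTORC2. They phosphorylate the ribosomal protein S6, translation factors, transcription factors such as CREB, and, in the case of SGK1, the ubiquitin ligase NEDD4L, which controls the epithelial sodium channel of airway and kidney. All of these kinases are regulated mainly as proteins, but SGK1 is also known as a gene that serum and glucocorticoids induce within a short time.

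The highest and the lowest of these genes both lie on chromosome 6, and the sequence before their start sites is shown because they stand at opposite ends of the family. RefSeq windows (GRCh38.p14), here the 250 bases before each annotated start, were used for 6 of the 8 genes, 13 windows in all. No window of SGK2 or SGK3 was searched, so the motif counts below do not cover these genes. SGK1 and RPS6KA2 had 3 windows each, numbered from the outermost start inwards. The motif TATAAA, in either orientation, was present in all 3 windows of SGK1 and in none of the other 10. It occurs in 10.7% of all 35116 windows of the table. CCAAT, in either orientation, was present in 5 of the 13 windows, and it occurs in 32.0% of all windows. The 5 were all 3 windows of RPS6KA2, window 1 of RPS6KA1 and window 1 of RPS6KA5, and none was of SGK1. Window 2 of SGK1 covers chr6:134177862-134178111 and window 3 chr6:134174867-134175116, both on the minus strand, with TATAAA or its complement in capitals.
SGK1 window 2: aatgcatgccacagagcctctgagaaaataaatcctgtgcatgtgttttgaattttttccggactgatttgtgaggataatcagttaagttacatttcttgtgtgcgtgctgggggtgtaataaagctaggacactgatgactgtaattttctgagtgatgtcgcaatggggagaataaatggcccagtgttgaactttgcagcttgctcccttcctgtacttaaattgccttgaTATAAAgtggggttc
SGK1 window 3: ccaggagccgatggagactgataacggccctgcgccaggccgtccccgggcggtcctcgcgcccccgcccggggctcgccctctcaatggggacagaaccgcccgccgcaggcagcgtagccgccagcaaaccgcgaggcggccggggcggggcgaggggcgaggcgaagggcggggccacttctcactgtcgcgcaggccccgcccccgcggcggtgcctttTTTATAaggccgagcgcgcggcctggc
Window 1 of RPS6KA2 covers chr6:166862526-166862775 and window 2 chr6:166627252-166627501, also on the minus strand, with CCAAT or its complement ATTGG in capitals.
RPS6KA2 window 1: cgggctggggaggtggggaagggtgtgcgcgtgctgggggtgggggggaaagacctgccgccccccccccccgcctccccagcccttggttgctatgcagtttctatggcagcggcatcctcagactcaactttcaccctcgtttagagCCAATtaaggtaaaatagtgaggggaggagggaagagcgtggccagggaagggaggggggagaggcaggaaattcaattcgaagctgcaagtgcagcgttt
RPS6KA2 window 2: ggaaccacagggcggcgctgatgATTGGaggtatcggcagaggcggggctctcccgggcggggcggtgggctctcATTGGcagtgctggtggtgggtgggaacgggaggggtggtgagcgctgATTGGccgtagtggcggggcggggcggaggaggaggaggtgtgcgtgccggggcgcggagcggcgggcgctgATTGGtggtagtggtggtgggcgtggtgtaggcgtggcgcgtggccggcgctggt

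In window 3 of SGK1 the match read TTTATA in the direction of the gene and began 27 bases before the start, and in window 2 it read TATAAA and began 15 bases before it. Window 3 was rich in G and C (76.0%, with 35 CpG), while windows 1 and 2 held 33.6% and 41.6%, against a median of 58.0% over all windows. It also held 6 GC boxes (GGGCGG or its complement), a number reached by 2.22% of all windows. Window 2 of RPS6KA2 held 4 CCAAT motifs, the number or more found in 0.874% of all windows, and 5 GC boxes. The short glucocorticoid receptor motif TGTTCT was found in either orientation in 1 of the 13 windows, that of RPS6KA3, against 12.4% of all windows. The cAMP element core TGACGT was found in 1 window of RPS6KA5, against 7.10% of all windows. The AP-1 site TGACTCA and the E-box CACGTG were found in none of the 13, against 4.20% and 6.34%. None of the matches overlapped a match of another motif. These are matches of letters in a short window, and which start BEAS-2B cells use was not measured.

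All ratios below are in the units of the deposited table, as logarithms of MTX over DMSO. A positive value is read as higher with MTX, which rests on the labelled dyes and the usual order of Cy5 over Cy3 and is therefore likely rather than settled. Whether the logarithm has base 10 or base 2 is not given in the sources used here, so folds are shown for both. Values were present for 21224 to 25927 probes per array. Across all probes array 3 stood apart, with Pearson correlations of 0.508 and 0.521 with arrays 1 and 2, against 0.850 between arrays 1 and 2. Nothing in the labels ties the arrays to separate cultures, and the spread between them may be technical. Of the epithelial markers 6 of 9 had values on 3 arrays, and in the limma fit EPCAM (0.278) and KRT14 (0.108) were called higher and KRT18 (-0.159) lower. Of 5 mesenchymal markers 4 had values (FN1, COL1A1, VIM and CDH2) and 0 were called, and of 6 blood and endothelial markers 1 had values and was not called. Ratios do not give the level of a gene, and the part of these markers in the results below was not tested.

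SGK1, the serum- and glucocorticoid-induced kinase, was the highest of the family. Its single probe gave 0.623, 0.634 and 0.447 on arrays 1, 2 and 3. The mean was 0.568 ± 0.105 (SD, n = 3), or 3.70-fold higher with MTX if the logarithm has base 10 and 1.48-fold if base 2. Array 3 was the lowest of the 3 and still placed SGK1 at rank 22 from the top of 9394 genes, after rank 11 on array 1 and rank 8 on array 2. Without array 3 the mean was 0.629. The spots around it on the slide, within 3 rows and 3 columns, had medians of 0.0246, 0.0315 and 0.0797, and subtracting them left SGK1 at 0.523. One neighbouring spot, that of the BMP antagonist gene GREM1, was also high, at 0.376, 0.419 and 0.269. The spot on the other side, that of PDE12, had a value on array 2 only, -0.00325. With a running median of neighbouring probe numbers removed instead, SGK1 was at 0.512.

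SGK3, a relative that is drawn to endosomes by a phosphoinositide-binding PX domain, was also above 0 on every array, at 0.139, 0.244 and 0.114. Its mean of 0.166 ± 0.0690 (n = 3) corresponds to 1.46-fold on the base 10 reading and 1.12-fold on the base 2 reading. No array of SGK3 reached the lowest array of SGK1, so the ranges of these related kinases did not overlap. SGK2 could not be averaged, since neither of its probes had a value on all 3 arrays. One of them gave 0.0363 on array 3 alone. The other gave -0.213 on array 1 and 0.00260 on array 3. The SGK genes thus spread from values near or below 0 for SGK2 to the upper end of the array for SGK1.

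RPS6KA2, which encodes the kinase RSK3, was the lowest member. Its single probe gave -0.708, -0.448 and -0.473. The mean was -0.543 ± 0.143 (n = 3), or 3.49-fold lower with MTX if base 10 and 1.46-fold if base 2. It ranked 3, 16 and 6 from the bottom of the 9394 genes on arrays 1, 2 and 3, so array 1 carried the most negative value but no array placed it outside the lowest 16. Without array 1 the mean was -0.460 and without array 3 it was -0.578. The surrounding spots had medians of -0.0769, 0.0171 and -0.0342, and subtraction of them left -0.512. The neighbouring spot, annotated TMEM133, ran the other way, at 0.232, 0.333 and 0.206.

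**Figure D1:**
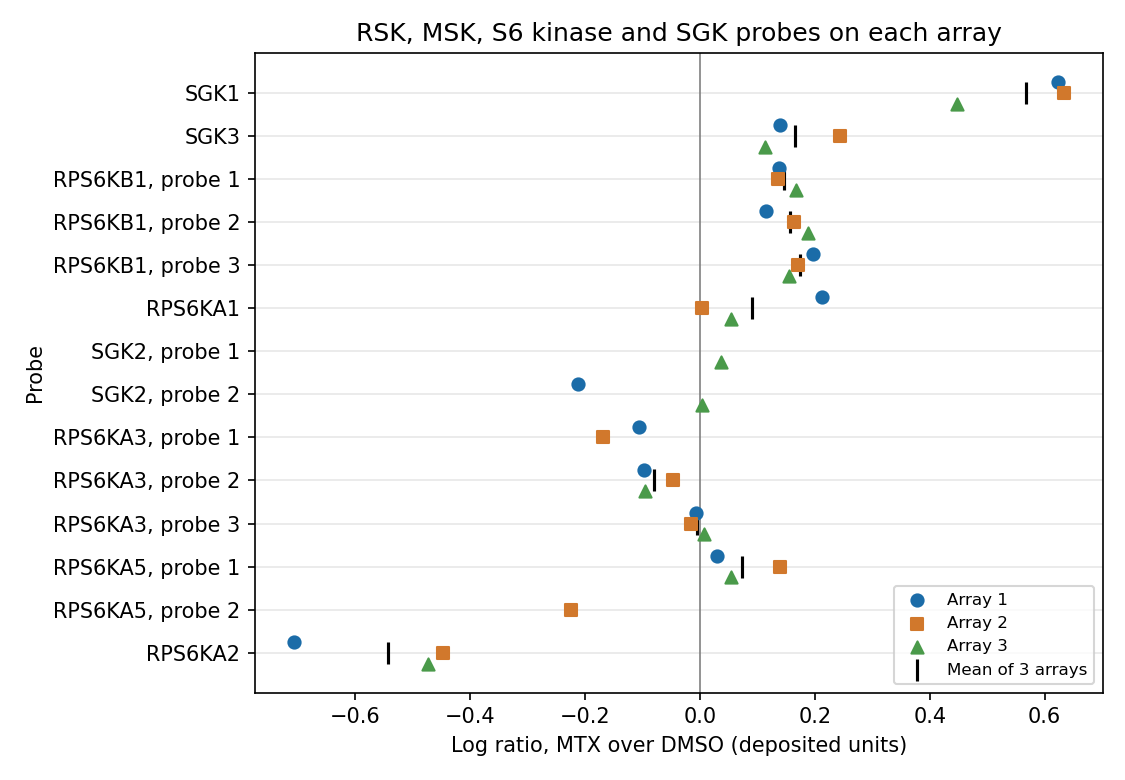
Log ratio of MTX over DMSO in deposited units (horizontal axis) for each of the 14 probes (rows), with 1 marker per array and a black bar at the mean where all 3 arrays have a value. SGK1 lies at 0.447 to 0.634 and RPS6KA2 at -0.708 to -0.448, while the 3 probes of RPS6KB1 lie close together between 0.116 and 0.196.

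The other RSK genes of the family, RPS6KA1 and RPS6KA3, did not share the value of RPS6KA2. A further RSK gene, RPS6KA6, was not among the 10 genes taken and was counted with the other AGC kinases below. It read 0.172, 0.0640 and 0.0171 on arrays 1, 2 and 3, with a mean of 0.0843 ± 0.0793 (n = 3). RPS6KA1, the gene of RSK1, was uneven, at 0.213 on array 1, 0.00274 on array 2 and 0.0540 on array 3. Its mean was 0.0899 ± 0.110 (n = 3), a spread larger than the mean itself, and leaving out array 1 lowered it to 0.0284. On the base 10 reading the mean is 1.23-fold and on the base 2 reading 1.06-fold.

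RPS6KA3, the gene of RSK2, which is mutated in Coffin-Lowry syndrome, had 3 probes. One of those with accession NM_004586 gave -0.0969, -0.0475 and -0.0962, and the other gave -0.00738, -0.0153 and 0.00708. A further probe, for the accession AA906057, gave -0.106 and -0.168 on arrays 1 and 2 and had no value on array 3. The mean over the complete probes was -0.0427 ± 0.0105 (n = 3), which is 1.10-fold lower on the base 10 reading and 1.03-fold lower on the base 2 reading. This small SD is that of an average over unlike probes, since the complete probes averaged -0.0802 and -0.00521. With the incomplete probe added the mean was -0.0639. RPS6KA3 was thus near 0 or slightly below it, depending on the probe.

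RPS6KA5 encodes MSK1, a nuclear kinase that phosphorylates CREB and histone H3. Its complete probe gave 0.0291, 0.139 and 0.0534, with a mean of 0.0739 ± 0.0579 (n = 3), or 1.19-fold if base 10 and 1.05-fold if base 2. Its other probe, for the same accession NM_004755, had a value on array 2 only, and that value was -0.224, against 0.139 for the complete probe there. The probes therefore differed in sign on the only array where both were measured.

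RPS6KB1, which encodes the S6 kinase S6K1, had 3 probes, each with values on all 3 arrays. Its probes, all for accession NM_003161, gave 0.138, 0.136 and 0.167 for the first, 0.116, 0.164 and 0.188 for the second, and 0.196, 0.170 and 0.154 for the last. Every probe was positive on every array. The gene mean was 0.159 ± 0.0102 (n = 3), or 1.44-fold if base 10 and 1.12-fold if base 2. This SD is also that of an average over probes and was close to that of RPS6KA3 (0.0105). Over the 3 arrays the single probes of RPS6KB1 had SDs of 0.0174, 0.0370 and 0.0211. The SD between the probes of RPS6KB1 was 0.0416, 0.0179 and 0.0171 on arrays 1, 2 and 3. Over all accessions with more than 1 probe (2251 to 2902 per array), the median of this SD was 0.0792, 0.0745 and 0.0703. For the 2 probes of RPS6KA3 that share an accession it was 0.0633, 0.0228 and 0.0731.

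Ordered by their means, the 7 genes ran SGK1, SGK3, RPS6KB1, RPS6KA1, RPS6KA5, RPS6KA3 and RPS6KA2. SGK1 lay 0.402 above SGK3, and RPS6KA2 lay 0.500 below RPS6KA3, and neither step had overlapping arrays. RPS6KA5 lay 0.117 above RPS6KA3, again without overlap. From SGK3 down to RPS6KA5 each gene overlapped the next, with steps of 0.00679, 0.0690 and 0.0160, although every array of RPS6KB1 lay above every array of RPS6KA5. Each of the 7 genes kept 1 sign on all 3 arrays when its complete probes were averaged. The share of all genes that did so was not computed. A single probe of RPS6KA3 changed sign on array 3, at 0.00708, and RPS6KA1 was near 0 on array 2, at 0.00274. The median over the 7 was 0.0899, against 0.00742 over all 9394 genes.

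**Figure D2:**
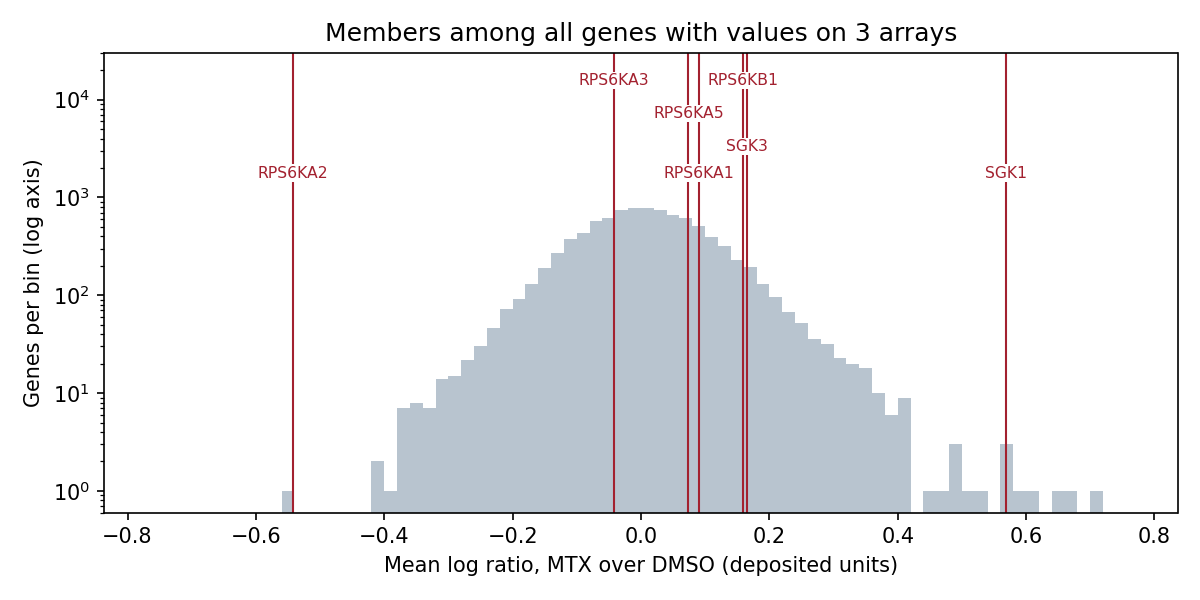
Number of genes per bin (vertical log axis) by mean log ratio of MTX over DMSO in deposited units, for the 9394 genes with values on 3 arrays, with a red line at each of the 7 members. SGK1 at 0.568 and RPS6KA2 at -0.543 stand in the sparse tails, and the other 5 lie between -0.0427 and 0.166.

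The genes nearest to SGK1 and RPS6KA2 were found by the Euclidean distance between their values on the 3 arrays. For SGK1 these were C11orf96 (distance 0.105, mean 0.513 ± 0.0727), the cytokine IL11 (distance 0.119, mean 0.532 ± 0.174) and the chromatin-binding factor ARID5B (distance 0.143, mean 0.498 ± 0.0589). For RPS6KA2 they were the actin-binding peptide gene TMSB4X (distance 0.314, mean -0.417 ± 0.0316), the helicase subunit MCM2 (distance 0.322, mean -0.379 ± 0.100) and the lamin gene LMNB1 (distance 0.332, mean -0.375 ± 0.0795). SGK1 therefore had close company, whereas the nearest gene to RPS6KA2 was 0.314 away. With 3 arrays this likeness is mainly one of size.

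**Figure D3:**
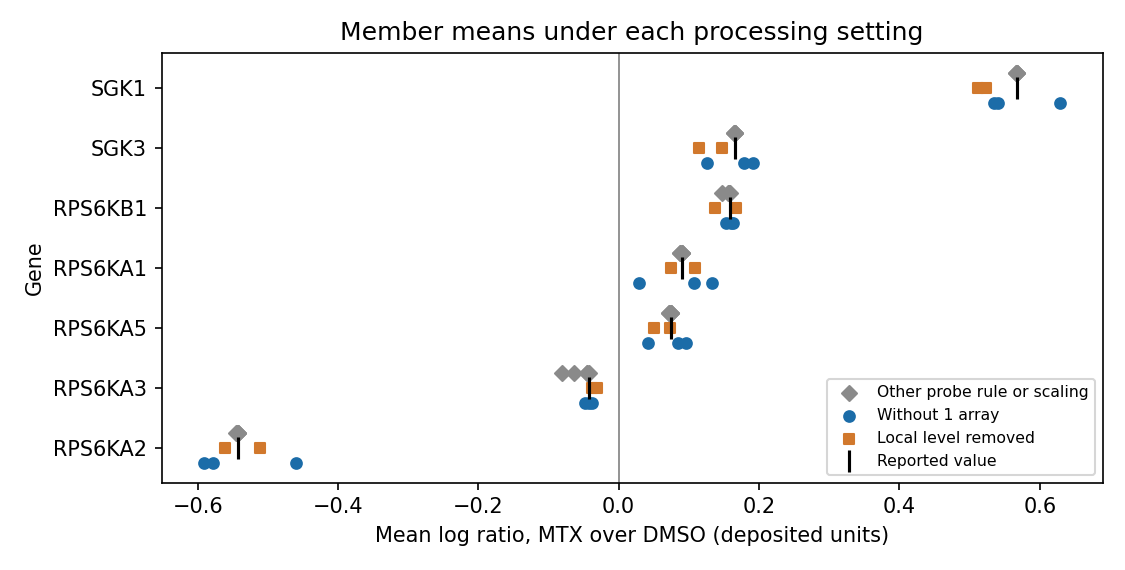
Mean log ratio of MTX over DMSO in deposited units (horizontal axis) of the 7 members (rows) as reported (black bar), without 1 array, with the local level of the slide removed, and under other probe rules or scalings. Every point of SGK1 lies between 0.512 and 0.629 and every point of RPS6KA2 between -0.590 and -0.460, and no member crosses 0.

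Genes that act before and after these kinases were examined next, in 10 lists of 200 genes, of which 115 had values on 3 arrays. Each was tested with limma over all 9394 genes, at an adjusted p under 0.05. Of the 115, 28 were higher and 15 lower, where 16.6% of all genes were called higher and 12.4% lower, or 29.0% in either direction. Without array 1 or without array 2 the fit called 0 genes of the whole table, with 2938 and 2387 at an unadjusted p under 0.05, so no call below was made without either of them. With probes on at least 2 arrays, 19 of the 39 called genes that the naming rule took from these lists lost the call. These were PTPN11, MAP2K1, NF1, PIK3R1, TBC1D7, RHEB, EEF2K, MITF, EIF4B, CEBPB, NFKBIA, IKBKB, FOXO3, CRISPLD2, RPS6KC1, CDC42BPB, ROCK2, PKN2 and YWHAB.

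Among genes of the RAS, RAF and ERK cascade that feeds RSK, 4 of 12 measured rose and 0 fell, with a median of 0.0226. They were the feedback inhibitor SPRY2 (0.133 ± 0.0345), the phosphatase PTPN11 (0.130 ± 0.0282), the ERK kinase MAP2K1 (0.0892 ± 0.0289) and the RAS inhibitor NF1 (0.0855 ± 0.0240). MAP2K1 and NF1 no longer passed after removal of the local level, at 0.0652 (adjusted p = 0.0728) and 0.0765 (adjusted p = 0.0521), and for PTPN11 another probe, measured on arrays 2 and 3, read -0.262 and -0.138. ERK1 itself (MAPK3) had only 1 value, -0.0175 on array 2, and MAPK14 was not analysed here. Of the p38 branch that feeds MSK, 2 of 6 rose, the kinases MAP2K3 (0.186 ± 0.0216) and MAP2K4 (0.120 ± 0.0239), and 1 fell, the stress kinase MAP3K5 (-0.107 ± 0.0154), with a median of 0.0769. With a running median of neighbouring probe numbers removed MAP3K5 was at -0.0558 and did not pass (adjusted p = 0.120).

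Of the PI3K, PDK1 and mTORC2 genes that act before SGK, 3 of 12 rose and 1 fell, with a median of 0.0200. PRR5L, which binds mTORC2, rose by 0.301 ± 0.105, while its relative PRR5 fell to -0.136 ± 0.0427. The catalytic subunit PIK3CB (0.213 ± 0.0481) and the regulatory subunit PIK3R1 (0.167 ± 0.0568) rose. PDPK1, the PDK1 gene, averaged 0.0756 ± 0.0357 and did not pass (adjusted p = 0.0710), nor did the mTORC2 subunit RICTOR at -0.0792 ± 0.0537 (adjusted p = 0.0929). AKT1 had 0.133 on array 1 only. AKT2 had 0.0291 and 0.107 from one probe on arrays 1 and 2 and -0.117 from another on array 3.

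Of the mTORC1 genes that act before S6 kinase, 1 of 13 rose and 1 fell, with a median of -0.0600. TBC1D7, a subunit of the TSC complex, rose by 0.109 ± 0.0359, and RHEB, the small GTPase that activates mTORC1, fell to -0.0848 ± 0.0210. The mTORC1 subunit RPTOR averaged -0.0356 ± 0.00662 (adjusted p = 0.221). DDIT4, an inhibitor of mTORC1, averaged -0.0711 ± 0.0394 (adjusted p = 0.0875), and its probes were of opposite sign on every array. MTOR had values on 2 arrays, 0.0969 and 0.116. The p53-induced SESN1 had 2 probes of opposite sign on arrays 2 and 3. With the local level removed, a setting chosen after seeing the data, 6 of the 13 passed, 2 higher and 4 lower. That setting called 2941 of all 9394 genes.

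Genes of the proteins that these kinases phosphorylate went both ways. Of 16 RSK and MSK substrates 3 rose and 4 fell, with a median of -0.0349, and of 8 S6 kinase substrates 2 rose and 2 fell, with a median of -0.0297. EEF2K, the kinase that slows translation elongation, rose by 0.148 ± 0.0498 and stands in both lists, although 0.0154 (adjusted p = 0.734) remained after removal of the local level. An incomplete probe of EEF2K read -0.126 and 0.0974 on arrays 2 and 3. The initiation factor EIF4B, also in both lists, fell to -0.157 ± 0.0612, on 4 complete probes that were negative on every array. On array 3 a pair of incomplete probes of EIF4B read 0.143 and 0.129, and its call was lost with probes on at least 2 arrays (adjusted p = 0.0899) and with its first probe alone (adjusted p = 0.118). The translation repressor EIF4EBP1 fell to -0.264 ± 0.0343, and the cap-binding protein NCBP1 rose by 0.129 ± 0.0360. EIF4EBP1 was counted among the S6 kinase substrates by the list used, although it is phosphorylated by mTORC1 itself. The RNA-binding protein YBX1 (0.115 ± 0.0183) and the melanocyte factor MITF (0.104 ± 0.0192, from probes of opposite sign on every array and not passing on the first alone, adjusted p = 0.549) rose, and the transcription factor CEBPB (-0.121 ± 0.0389) and the NF-kappaB inhibitor NFKBIA (-0.117 ± 0.0428) fell. RPS6, the ribosomal protein that names the family, averaged -0.0619 ± 0.0249 (adjusted p = 0.0904), and CREB1 averaged -0.0438 ± 0.0336 (adjusted p = 0.207).

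Of 12 substrates and effectors of SGK, 2 rose and 2 fell, with a median of 0.0167. The p53 ligase MDM2 rose by 0.409 ± 0.126 and the NF-kappaB kinase IKBKB by 0.182 ± 0.103. The other probes of IKBKB were negative where measured, at -0.131 on array 2 for one and -0.102 and -0.111 on arrays 2 and 3 for the other, and an average of 0.0952 that took in probes with 2 arrays did not pass (adjusted p = 0.279). The kinase WNK1 fell to -0.218 ± 0.0879 and the transcription factor FOXO3 to -0.175 ± 0.107, which lost its call without array 3 (adjusted p = 0.0502). Incomplete probes of WNK1 read 0.194 on array 3 for one and -0.0145 on array 2 for another. An incomplete probe of FOXO3 read 0.00754 and 0.0732 on arrays 2 and 3. NDRG1, a protein whose phosphorylation is widely used as a readout of SGK1, gave 0.205, 0.322 and -0.0819 and did not pass (adjusted p = 0.216). Its array 3 thus opposed the others, and without it NDRG1 averaged 0.264 (adjusted p = 0.00593) in a fit that called 4287 of 9394 genes. Without array 1 it averaged 0.120 and without array 2 0.0616, neither of which passed. NEDD4L averaged 0.0262 ± 0.0890 (adjusted p = 0.628).

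Because SGK1 is known as a glucocorticoid-induced gene, other such genes were set beside it. Of 11 measured, 5 rose and 1 fell, with a median of 0.0549, against 0.568 for SGK1 and 0.00742 for all genes. The phosphatase DUSP1 rose by 0.582 ± 0.0758 on its complete probe, while another read 0.238 and 0.168 on arrays 2 and 3, and with both it averaged 0.446. The receptor co-chaperone FKBP5 rose by 0.161 ± 0.0388, the ribosyltransferase TIPARP by 0.202 ± 0.0239 and the lipase inhibitor ANGPTL4 by 0.177 ± 0.0748, while CRISPLD2 fell to -0.145 ± 0.0664. Incomplete probes of CRISPLD2 read 0.163 and -0.194 on arrays 2 and 3 for one and -0.190 on array 3 for another. TSC22D3, the GILZ gene, had values on arrays 2 and 3 only, 0.0609 and 0.0445. The receptor gene NR3C1, picked out after its value was seen, averaged 0.0252 ± 0.0254 and did not pass.

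Among 26 other AGC kinases, with RPS6KA6 counted here, 5 rose and 3 fell, with a median of 0.00391. RPS6KA6 itself did not pass (adjusted p = 0.135). RPS6KC1, a more distant relative of the S6 kinases, rose by 0.200 ± 0.101, after GRK5 (0.244 ± 0.0214), which phosphorylates activated receptors, and before the myotonic dystrophy kinase DMPK (0.139 ± 0.0136). CDC42BPB (-0.197 ± 0.0587), the cytoskeletal kinase ROCK2 (-0.0884 ± 0.0236) and PKN2 (-0.0848 ± 0.00394) fell. An incomplete probe of CDC42BPB read 0.00178 and 0.0957 on arrays 1 and 3. The small SD of PKN2 is that of an average over 4 unlike probes. One of them read -0.0143, -0.0121 and 0.0215, and another -0.149, -0.148 and -0.143. The probes of ROCK2 disagreed, and the first of them alone gave 0.0308. None of the 26 lay as far from 0 as SGK1 or RPS6KA2, which were known to stand near the ends when the family was chosen. Of the YWHA adaptors that bind phosphorylated substrates of these kinases, 2 of 6 rose, YWHAH (0.215 ± 0.0573) and YWHAG (0.120 ± 0.0355), and YWHAB fell to -0.125 ± 0.0523, with a median of 0.0395. The probes of YWHAB were of opposite sign on arrays 2 and 3, and its call was lost with the first alone (-0.0137, adjusted p = 0.774) and with probes on at least 2 arrays (adjusted p = 0.0589).

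**Figure D4:**
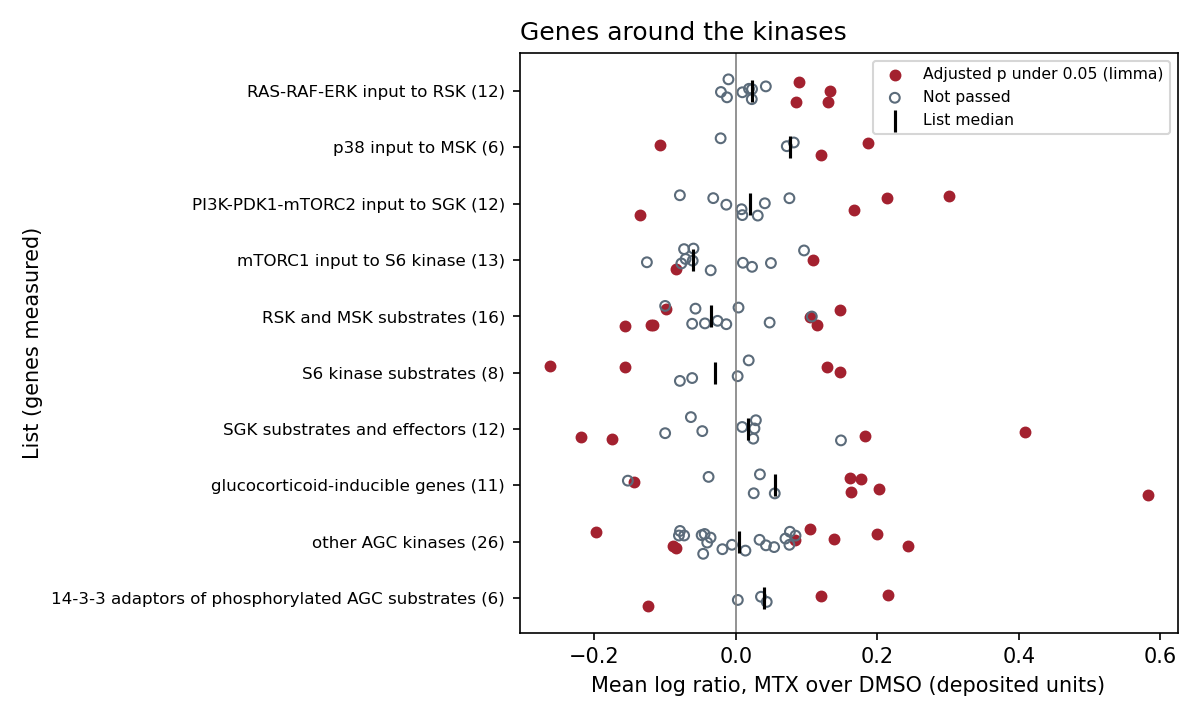
Mean log ratio of MTX over DMSO in deposited units (horizontal axis) of each measured gene in the 10 lists (rows, with the number measured), filled where limma's adjusted p was under 0.05 and open otherwise, with a black bar at the list median. The list medians lie between -0.0600 and 0.0769, and the points farthest from 0 are DUSP1 at 0.582 and MDM2 at 0.409.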

How the data were processed

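Per the series' design text, the authors read slides with a GenePix scanner, subtracted the local median background and applied intensity-dependent LOWESS. The deposited table holds 1 log ratio per probe and array; its base is not stated, and log10 was the working unit of the deposited values. Ratios were used as deposited (array medians 0.00137 to 0.00222). Signal intensities were not used here, so depth and background cannot be given; the 3 arrays limit the precision.

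Probes were named from the platform annotation, with 22472 carrying 1 symbol; 0 symbols changed through RefSeq. Complete probes were averaged per gene and array. Means were tested against 0 with limma 3.58.1 (lmFit, eBayes; R 4.3.3), two-sided, Benjamini-Hochberg over 9394 genes. The design had foreseen this unit. The fit was tested on simulated data. Motifs were searched in RefSeq windows. Figures were drawn with matplotlib 3.10.9.

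The members and lists were chosen with earlier results of these data known. Named were all members, called genes of a list where 5 or fewer (otherwise the 3 highest and 3 lowest), 19 genes whatever their values, and the 3 nearest genes of the highest and lowest member. Alternatives covered centring, scaling, local level, arrays, probe rules and the variance model.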

Additional observations from a re-analysis of the deposited data

How the results depend on the processing

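No paired analysis was possible because each array is already a ratio and the 3 arrays form 1 group. None of the 7 member means changed sign under any alternative for which they were recomputed. Array weights, which also change means, were not among these. RPS6KA3 moved beyond its SD to -0.0305 with a running median of neighbouring probe numbers removed, -0.0639 with probes on at least 2 arrays and -0.0802 with its first probe. RPS6KB1 moved to 0.147 with its first probe and 0.138 with the surface level removed, an alternative chosen after seeing the data. Over all genes limma called 2726 as reported, 1633 with probes on at least 2 arrays and 2941 with the surface level removed. It called 5801 with array weights, and 0 to 4287 without 1 array. A one-sample test without moderated variance called 0, with 3025 at an unadjusted p under 0.05, and likewise 0 in each of the 10 lists. In the order ERK, p38, PI3K, mTORC1, RSK and MSK substrates, S6 kinase substrates, SGK substrates, glucocorticoid-inducible, other AGC and YWHA, the lists had 4, 3, 4, 2, 7, 4, 4, 6, 8 and 3 calls. Without 1 array they had 0 to 4, 0 to 4, 0 to 6, 0 to 3, 0 to 11, 0 to 5, 0 to 6, 0 to 7, 0 to 11 and 0 to 3. With probes on at least 2 arrays ERK had 1, mTORC1 0 (7 at an unadjusted p under 0.05), RSK and MSK substrates 1, S6 kinase substrates 2, SGK substrates 2 and other AGC 2. With the first probe of each gene ERK had 1 and RSK and MSK substrates 4. With the surface level removed ERK had 2, mTORC1 6 and RSK and MSK substrates 4. Array weights gave p38 5, PI3K 7, mTORC1 10, RSK and MSK substrates 11 and other AGC 17. ROCK2 reversed to 0.0308 with its first probe. Of 39 named called genes, 19 lost the call with probes on at least 2 arrays and 8 with the surface level removed. Apart from the alternatives' own construction, the cause was not tested.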
